A study of Mus musculus with 2 samples.

Results

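The Hox genes of the 4 mammalian clusters were examined for accessible chromatin in the adult mouse thymus. The genes were all protein-coding genes of the GENCODE M21 annotation (mm10) whose symbols begin with Hoxa, Hoxb, Hoxc or Hoxd, which gave 39 of 21938 protein-coding genes: 11 in HoxA, 10 in HoxB, 9 in HoxC and 9 in HoxD. The samples were whole thymus of male B6CASTF1/J mice aged 2 months, the first-generation cross of C57BL/6J and CAST/EiJ. There was 1 group with 2 replicates and no treatment or control group. The labels number a separate animal for each replicate but give both the same donor identifier, so the spread between them may be partly technical. Both parental alleles were measured together. DNase I cuts DNA where nucleosomes leave it exposed, and regions with many cuts are called as peaks.

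Hox genes encode homeodomain transcription factors that set the identity of segments along the body axis. Within a cluster the genes lie in the order in which they act along that axis, from anterior genes with low paralogue numbers to posterior genes with high ones, and mammals carry copies of the ancestral cluster on separate chromosomes. Polycomb complexes hold the clusters silent where they are not used, trithorax-group complexes with MLL proteins keep active genes on, and CTCF-bound sites are known to separate active from silent parts of a cluster. In the mouse, Hoxa3 is needed for the thymus to form in the embryo, and Hoxa9 acts in early blood and lymphoid progenitors.

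A promoter was taken as open when a peak lay no more than 1000 bp from one of the gene's annotated transcription start sites (TSSs). Each replicate has a strict peak list, in which every peak reached a false discovery rate (FDR) of 0.001 or less, and a looser list. The strict lists held 63832 entries in replicate 1 and 67929 in replicate 2, and the median strict peak held 213 and 226 steps of the score. The score is the authors' signal value; within a replicate every strict score was a whole number of steps of 0.007407 (replicate 1) or 0.006077 (replicate 2), within 0.05 of a step once the step was fitted to the scores. The total number of cuts is not stated. Where 2 scores are given for a gene or region, they are those of replicate 1 and replicate 2. Over the 51709 regions that held a strict peak of both replicates, the log2 score of replicate 2 minus that of replicate 1 had a median of -0.22 and an SD of 0.46.

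One stretch set the replicates apart and bears on several values below. From Hoxa9 to Hoxa11 (chr6:52223100-52245810, mm10, 22711 bp) replicate 1 had 20 strict peaks and replicate 2 had 1. Of the 20, 19 had no strict and no looser peak of replicate 2. Their scores were low, with a median of 0.193 and a range of 0.0889 to 0.985, and 16 of the 19 lay under 0.3; the lowest rested on 12 steps. Replicate 1 had 7325 bases at an FDR of at most 0.001 in this stretch and replicate 2 had 272, and the footprints (short protected stretches inside open DNA, called by the authors) numbered 26 and 4. Strict peaks with scores under 0.3 made up 1.29% of all strict peaks in replicate 1 and 1.06% in replicate 2, and 15 and 7 bins of 50000 bp in the genome held 10 or more of them. What separates the replicates here was not tested, and counts that rest on both replicates are used below.

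**Figure D1:**
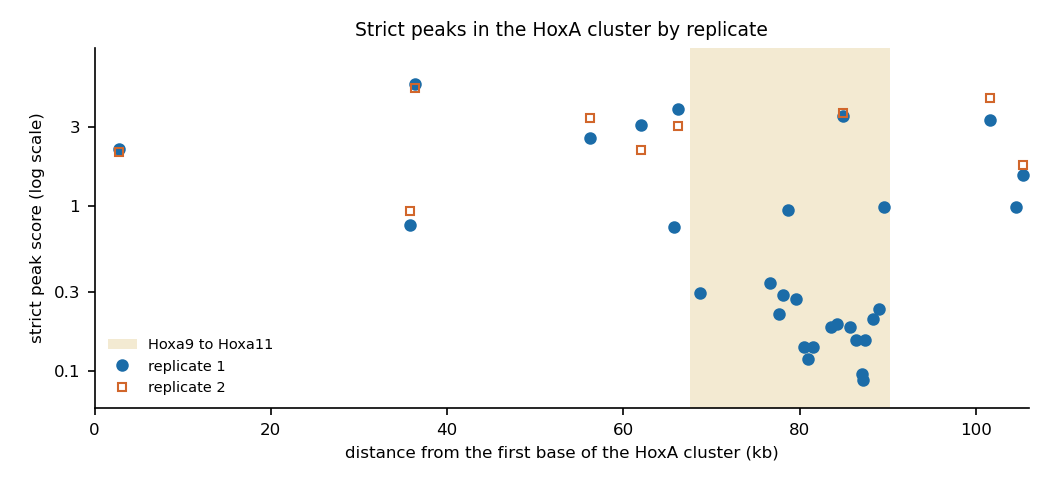
Score of each strict peak (log scale) against the distance in kb from the first base of the HoxA cluster; filled circles are replicate 1, open squares replicate 2, and the shaded band runs from Hoxa9 to Hoxa11. Inside the band 19 of the 20 replicate 1 peaks have no partner in replicate 2, whereas outside it most peaks come in pairs.

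Most Hox promoters had no strict peak, and such promoters and stretches are called closed below. A strict promoter peak in both replicates was found at 9 of 39 Hox genes (23.1%), against 59.0% of all protein-coding genes. In replicate 1 it was 11 Hox genes (28.2%), against 60.1% of all genes, and in replicate 2 it was 10 (25.6%), against 60.6%. No strict peak in either replicate was found at 27 Hox genes (69.2%), against 38.3% of all genes. With the looser list, 11 Hox genes (28.2%) had a peak in both replicates, against 62.7% of all genes. No peak of any list was found at 20 Hox genes (51.3%), against 33.3%, and at 19 (48.7%) not a single base within the promoter window reached an FDR under 0.05 in either replicate, against 32.2% of all genes. A footprint in the window in both replicates was found at 9 Hox genes (23.1%), against 61.0% of all genes, and these were the 9 with a strict peak in both. Footprints lie inside open DNA of the same replicates, so this is not independent of the peaks. In each replicate alone 12 Hox genes had a footprint, for which no share over all genes is given. In whole tissue, few cells with an open promoter and a weak opening in many cells cannot be told apart.

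The CpG content of the 30 Hox promoters not open in both replicates was close to that of the 9 open in both in the median, though 4 of the 30 had under 20 CpGs. Vertebrate promoters rich in CpG dinucleotides are open in most tissues, so CpGs were counted in the 500 bp on either side of each gene's 5′ end. Its median was 52 over the 39 Hox genes, against 41 over all protein-coding genes and 60 over all genes with a strict peak in both replicates. Among Hox genes the 9 with a peak in both had a median of 52 and the other 30 a median of 54. Of Hox genes with under 20 CpGs, 0 of 4 had a peak in both replicates, against 18.2% of all genes in that range. With 20 to 39 CpGs it was 1 of 6, against 55.0%, and with 40 to 59 CpGs 5 of 13 (38.5%), against 83.1%. With 60 to 79 CpGs it was 1 of 11 (9.09%), against 89.5% of all genes, and with 80 or more 2 of 5 (40%), against 91.3%. In each of the 5 ranges the Hox share was the lower one, though the ranges hold few Hox genes.

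**Figure D2:**
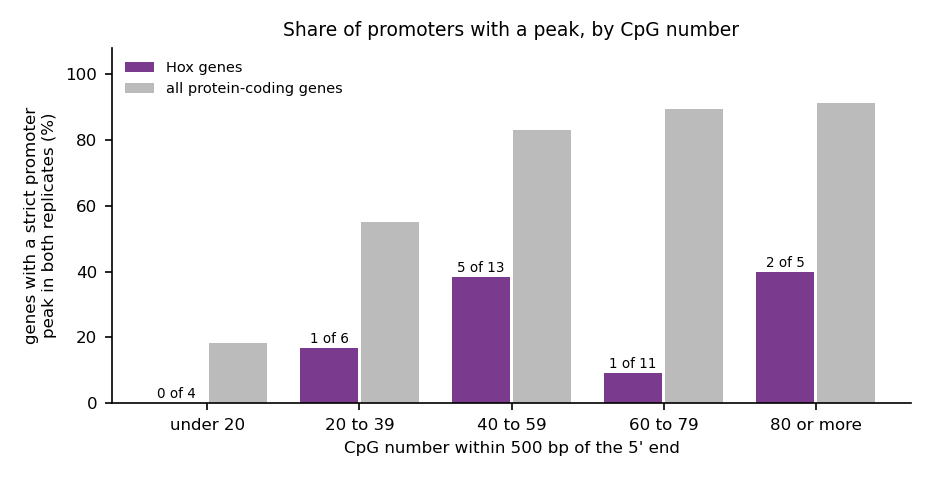
Share of genes with a strict promoter peak in both replicates (%), by CpG number around the 5′ end; purple bars are Hox genes with their counts, grey bars all protein-coding genes. The grey bars climb to 91.3% while the purple bars stay at or below 40%.

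The open genes per cluster ranged from 0 to 5, and a difference between clusters was not tested. HoxA had 5 of its 11 genes open in both replicates, Hoxa4, Hoxa7, Hoxa10 and Hoxa13 among them. HoxB had 2 of 10, Hoxb5 and Hoxb4. HoxC had 2 of 9, Hoxc10 and Hoxc5, through 1 shared peak. HoxD had 0 of 9, a count that describes these neighbouring genes and bounds no wider share. Along the body axis, 3 of 12 anterior genes (paralogue numbers 1 to 4), 3 of 11 central genes (5 to 8) and 3 of 16 posterior genes (9 to 13) were open in both replicates.

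The peak with the highest score in each cluster is given here as mm10 sequence of the plus strand, with the bases that lie in a footprint of both replicates in capitals, since these are the most accessible sites of the clusters. The first lies at the Hoxa4 promoter, the second in an intron of Hoxb6, the third in an intron of the long Hoxc5 transcript and the last over an exon of the antisense RNA gene Hoxd3os1.
HoxA, chr6:52191881-52192060: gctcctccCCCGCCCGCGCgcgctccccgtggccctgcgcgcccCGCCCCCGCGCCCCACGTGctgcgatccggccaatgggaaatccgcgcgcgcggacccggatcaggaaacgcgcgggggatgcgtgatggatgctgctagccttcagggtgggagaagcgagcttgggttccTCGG
HoxB, chr11:96294601-96294800: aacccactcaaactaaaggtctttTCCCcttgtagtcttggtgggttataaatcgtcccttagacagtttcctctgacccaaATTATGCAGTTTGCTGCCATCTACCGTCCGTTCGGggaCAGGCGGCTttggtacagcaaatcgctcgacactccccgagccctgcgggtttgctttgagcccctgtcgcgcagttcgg
HoxC, chr15:102987521-102987700: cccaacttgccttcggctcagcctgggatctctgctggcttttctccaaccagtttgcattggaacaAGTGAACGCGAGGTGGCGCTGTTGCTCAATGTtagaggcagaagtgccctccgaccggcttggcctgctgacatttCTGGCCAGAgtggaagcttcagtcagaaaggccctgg
HoxD, chr2:74715841-74716040: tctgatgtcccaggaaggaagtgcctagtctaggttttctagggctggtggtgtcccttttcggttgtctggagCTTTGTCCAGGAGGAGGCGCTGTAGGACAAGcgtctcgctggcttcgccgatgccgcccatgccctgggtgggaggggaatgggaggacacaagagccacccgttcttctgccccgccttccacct

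Among anterior genes, Hoxa4, which acts in patterning of the neck vertebrae, had the highest promoter score of all Hox genes: 5.43 in replicate 1 and 5.15 in replicate 2. Its peak, the HoxA sequence above, lay 128 bp upstream of its TSS, inside an intron of the long Hoxa3 transcript, and a second shared peak at chr6:52191140-52191615 with scores of 0.763 and 0.936 lay over its exon. Hoxb4, known for supporting blood stem cells, scored 1.71 and 1.79 at chr11:96318501-96318800, over its exon.

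The central genes with a peak in both replicates were Hoxa7, Hoxb5 and Hoxc5. Hoxa7 scored 3.83 and 3.03 at chr6:52221701-52221920, and a second of its start sites had a peak at chr6:52217461-52217680 with scores of 3.10 and 2.18. Hoxb5, used as a marker of long-term blood stem cells in the mouse, scored 1.77 and 2.02 at chr11:96303141-96303340. The call of Hoxc5 rested on an annotated start far upstream, next to Hoxc10. At its other annotated start site only replicate 2 had a strict peak, with a score of 0.614 at chr15:103013648-103013766, 49 bp from the TSS; replicate 1 had a looser peak of 0.481 there.

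Of the posterior genes, Hoxa10, which acts in the lumbar skeleton and the uterus, scored 3.49 and 3.66 at chr6:52240441-52240640, over an exon. This peak was the only one between Hoxa9 and Hoxa11 that replicate 2 shared. Hoxa13, a gene of the distal limb and the genital tract, scored 1.54 and 1.76 at chr6:52260761-52261020. Hoxc10, a gene of the lumbar spinal cord and hindlimb, scored 1.01 and 1.46 at chr15:102966501-102966700, the lowest of the 9 together with Hoxc5, which has the same peak.

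Both replicates put Hoxa4 above every other Hox gene, and both put Hoxc10 and Hoxc5 below the rest. Hoxa10 and Hoxa7 overlapped each other, and lay above Hoxb5, Hoxb4 and Hoxa13 in both replicates. Among these 3, the range of Hoxb4 overlapped those of Hoxb5 and Hoxa13, and both replicates gave the order Hoxb5, Hoxb4, Hoxa13. Even the open Hox promoters scored low for open promoters: the median of the 9 mean scores was 1.89 (range 1.24 to 5.29), against 6.83 (quartiles 3.36 and 10.7) over the 12935 protein-coding genes with a strict peak in both replicates. Of those genes, 14.7% scored below the Hox median and 38.9% below Hoxa4.

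**Figure D3:**
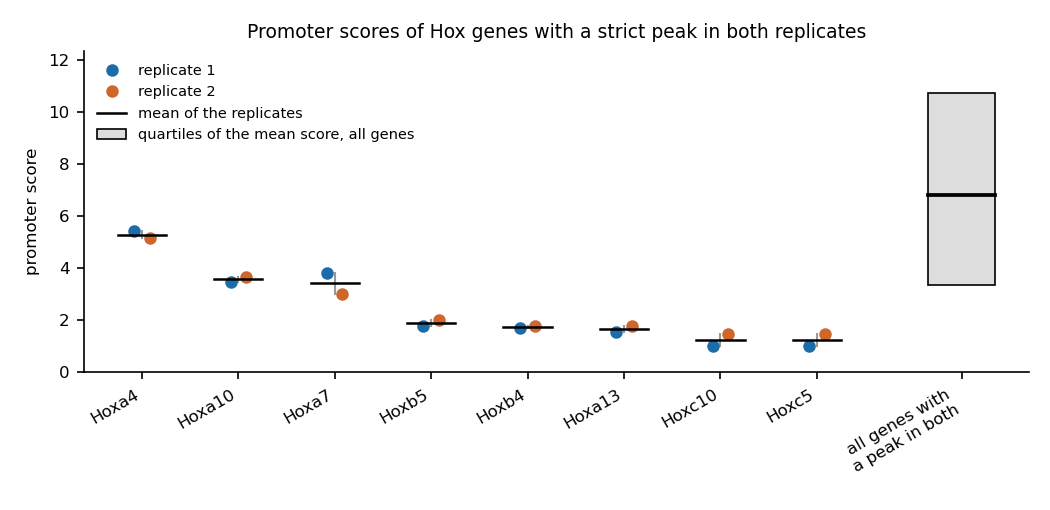
Promoter score of 8 of the 9 Hox genes with a strict peak in both replicates (points: replicates; bars: their mean) beside the mean scores of all 12935 protein-coding genes with such a peak (box: quartiles; line: median). Hoxa4, Hoxa10 and Hoxa7 lie above the lower quartile of 3.36 and the other genes drawn below it.

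At 3 of the 39 Hox genes only 1 replicate had a strict promoter peak. Of all 21938 protein-coding genes, 12935 had one in both replicates, 8411 in neither, and the rest in only 1. Hoxa11, a gene of the forearm, kidney and uterus, scored 0.985 in replicate 1, and Hoxa9 scored 0.341 in replicate 1; both peaks lie in the stretch in which replicate 1 stood apart. The Hoxa9 peak lay 996 bp from a start site, inside an exon of Hoxa10. Hoxc6 scored 0.887 in replicate 2, while replicate 1 had a peak of 0.585 there in the looser list only.

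Of the 27 Hox genes without a strict peak, 7 had a peak in a looser list. Of all 8411 genes without a strict peak, 7295 had no peak in any list. Hoxc9 had one in both replicates, of 0.489 and 0.577. Hoxa3 (0.733), Hoxb9 (0.452) and Hoxc13 (0.385) had one in replicate 1 only, and Hoxd8 (0.541), Hoxd1 (0.377) and Hoxc12 (0.334) in replicate 2 only. The other 20 had no peak in any list: Hoxa2, Hoxa5 and Hoxa6 in HoxA, Hoxb13, Hoxb8, Hoxb7, Hoxb6, Hoxb3, Hoxb2 and Hoxb1 in HoxB, Hoxc11, Hoxc8 and Hoxc4 in HoxC, and Hoxd13, Hoxd12, Hoxd11, Hoxd10, Hoxd9, Hoxd4 and Hoxd3 in HoxD. Neither Hoxa3, needed for the thymus to form, nor any other member of paralogue group 3 had a strict promoter peak, but a shared region at chr6:52211621-52211860 (2.56 and 3.39) lay 1255 bp from a Hoxa3 start, just outside the window.

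A pair of paralogues shows open and closed promoters of like CpG density. It was chosen after the values were seen. Hoxa13 and Hoxd13, both genes of the digits, have 126 and 118 CpGs around the 5′ end. Hoxa13 had strict peaks in both replicates, and at Hoxd13 no base of the window reached an FDR under 0.05. The 250 bases upstream of each 5′ end on the strand of the gene, with CpG dinucleotides in capitals, hold 35 CpGs at Hoxa13 and 31 at Hoxd13.
Hoxa13, chr6:52260881-52261130, minus strand: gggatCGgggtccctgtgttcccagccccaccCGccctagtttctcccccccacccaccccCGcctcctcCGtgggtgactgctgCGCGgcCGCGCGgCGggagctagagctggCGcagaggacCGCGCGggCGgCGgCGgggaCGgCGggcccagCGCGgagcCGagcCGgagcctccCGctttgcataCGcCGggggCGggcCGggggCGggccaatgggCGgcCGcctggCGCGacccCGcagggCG
Hoxd13, chr2:74668060-74668309, plus strand: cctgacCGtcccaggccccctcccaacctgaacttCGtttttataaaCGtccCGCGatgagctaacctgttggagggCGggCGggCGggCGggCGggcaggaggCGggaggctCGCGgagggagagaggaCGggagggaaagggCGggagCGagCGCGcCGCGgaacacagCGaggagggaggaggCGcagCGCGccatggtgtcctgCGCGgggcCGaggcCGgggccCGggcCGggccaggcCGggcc

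Open sites were then located along the clusters, whether at a promoter or not. Inside the 4 clusters (492 kb in all) 24 regions held a strict peak of both replicates, which is 4.88 per 100 kb, against 1.90 per 100 kb over the genome. The genome rate is not matched for gene density, so it does not make the clusters rich in open sites for their genes. The clusters hold 39 protein-coding and 43 noncoding genes in these 492 kb. The genome holds 21938 and 33475 in 2726 Mb. HoxA (105 kb) had 9, HoxB (174 kb) 9, HoxC (116 kb) 2 and HoxD (96.8 kb) 4, or 8.55, 5.17, 1.73 and 4.13 per 100 kb. Of the 24, 10 lay within 1000 bp of a Hox TSS, 14 did not, and 9 lay at no annotated TSS at all. The other 15 lay within 1000 bp of some annotated TSS, against 43.1% of all shared regions. By annotation, 12 touched an exon, 4 lay in introns and 8 between genes. Footprint bases of both replicates were found in 23 of the 24. The counts by annotation and by footprint have no share over all shared regions beside them. Replicate 1 alone had 21 further strict peaks, all in HoxA, and replicate 2 alone had 3. Once the genome-wide median difference between replicates was taken off, 1 of the 24 regions differed by more than 2 SD, against 4.8% of all shared regions. It lay at chr11:96261661-96261840 over an exon of the noncoding RNA gene Gm53, with scores of 1.19 and 2.07.

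Several of the strongest sites lay away from Hox promoters. In HoxA, after Hoxa4, the highest regions were chr6:52257041-52257220, with scores of 3.30 and 4.46, over an exon of 9530018H14Rik and 3582 bp from Hoxa13, and the Hoxa10 promoter. In HoxB they were the intronic Hoxb6 peak shown above (2.76 and 3.65), chr11:96278861-96279060 between genes and 2845 bp from Hoxb8 (2.5 and 3.46), and chr11:96311641-96311840, also between genes and 6427 bp from Hoxb4 (2.21 and 1.73). In HoxC the intronic peak shown above scored 2.21 and 3.0 and lay 2907 bp from Hoxc8. HoxD, with no open Hox promoter, had the Hoxd3os1 peak shown above (2.94 and 2.89), chr2:74702321-74702480 between genes and 2135 bp from Hoxd8 (1.36 and 1.85), and chr2:74673117-74673233 between genes and 1780 bp from Hoxd12 (1.04 and 0.857). Its other region, chr2:74749421-74749705 (1.13 and 0.699), lay over an exon of Haglr, a long noncoding RNA gene, at an internal annotated start and not at the 5′ end of the gene; it was named after its values were seen. The median of the mean scores was 2.03 for the 10 regions at Hox promoters and 1.8 for the 14 others. Split by any annotated TSS, 15 cluster regions within 1000 bp of one had a median of 1.89, against 3.25 over all shared regions so placed. The 9 cluster regions farther away had a median of 1.97, against 1.45.

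**Figure D4:**
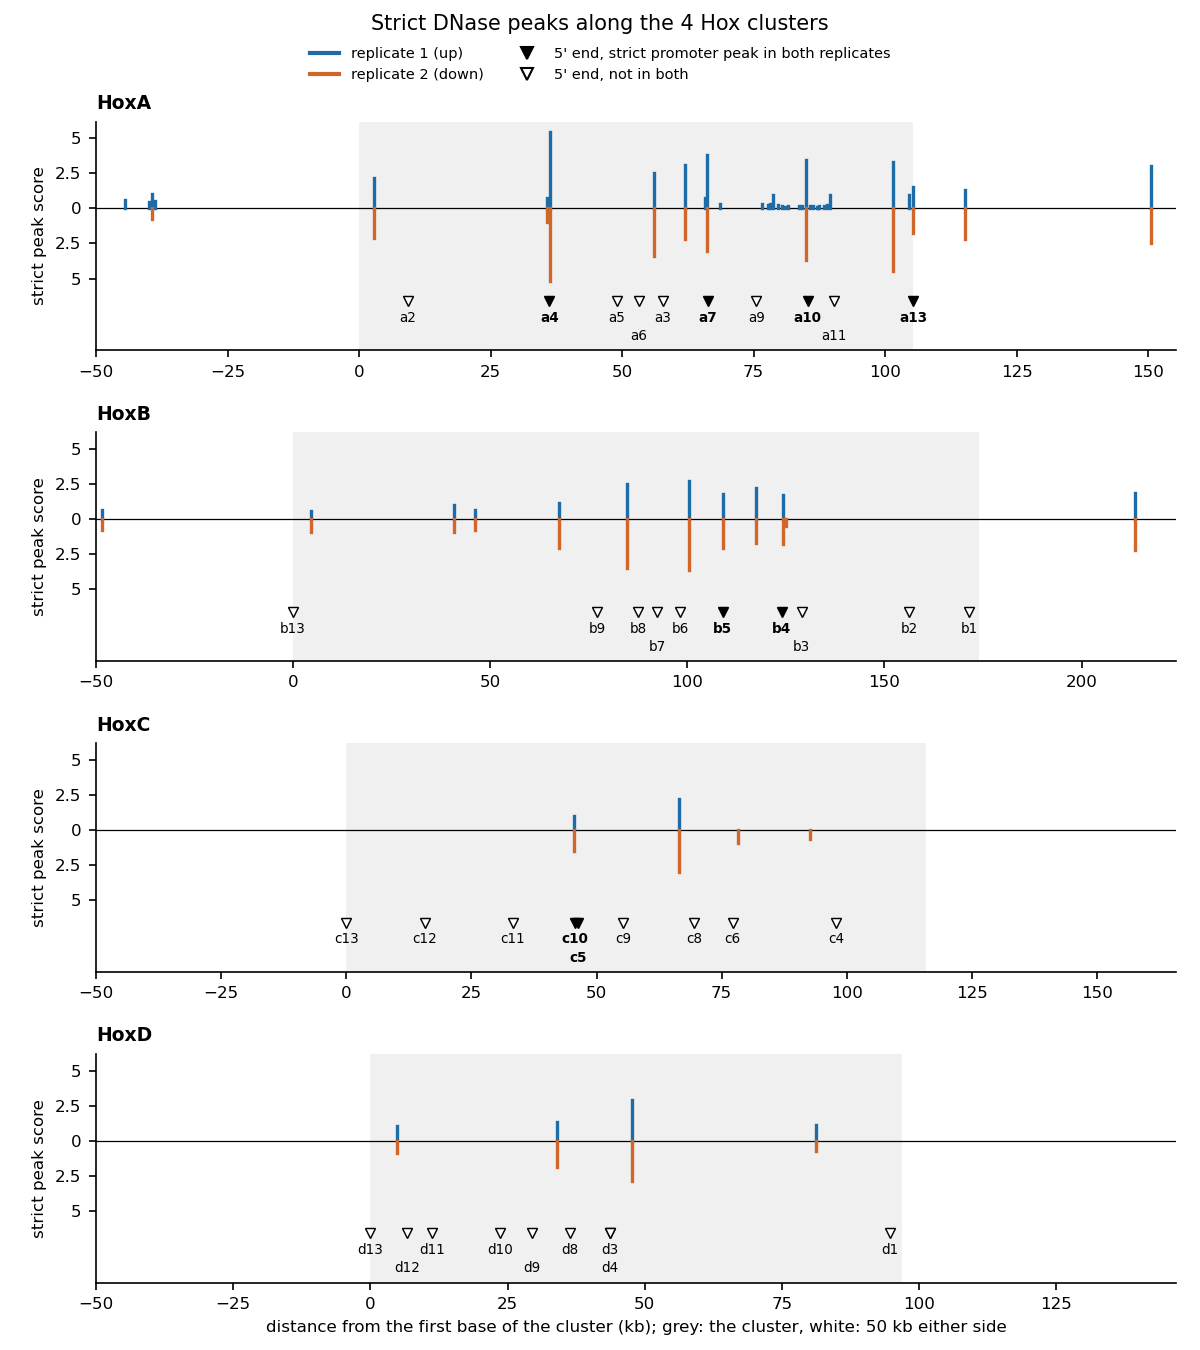
Strict peaks along each cluster and 50 kb either side: height gives the score, upward for replicate 1 and downward for replicate 2, against the distance in kb from the first base of the cluster in genome order. Triangles mark the 5′ ends of 38 Hox genes, filled where a strict promoter peak was present in both replicates; HoxA is the most crowded map, and the 50 kb on each side of HoxC and HoxD hold no strict peak.

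Between the open sites lay long closed stretches. The longest run without a strict peak of either replicate inside HoxA was 32.6 kb (chr6:52158501-52191139) and held the 5′ end of Hoxa2. In HoxB it was 49.0 kb (chr11:96319301-96368256) with Hoxb3, Hoxb2 and Hoxb1. In HoxC it was 45.4 kb (chr15:102921103-102966500) with Hoxc13, Hoxc12 and Hoxc11, and in HoxD 33.4 kb (chr2:74716041-74749420) with no Hox 5′ end. A second HoxD stretch of 29.1 kb, named after its values were seen, held Hoxd12, Hoxd11, Hoxd10 and Hoxd9. With the looser list the longest HoxA run was 19.6 kb, a different stretch with Hoxa5 and Hoxa6, and the longest HoxC run was 29.3 kb. With 50 kb added on either side, the longest runs were 41.3 kb at HoxA, 88.5 kb at HoxB, 95.4 kb at HoxC and 65.4 kb at HoxD; the last 2 reach the edge of the 50 kb and are minimum lengths. Over the genome the median gap between strict peaks was 5.68 kb and the 90th percentile 57.4 kb. The longest runs inside the clusters, which stop at the cluster edges, were all under this percentile. A longest run is not a like measure to the median of all gaps, so no run is called unusually long.

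Bases at an FDR under 0.05 covered 14.8% of HoxA in replicate 1 and 4.27% in replicate 2, where the Hoxa9 to Hoxa11 stretch set replicate 1 apart. They covered 2.15% and 2.29% of HoxB, 1.00% and 1.19% of HoxC, and 1.56% and 1.74% of HoxD. In the 50 kb on either side, shared strict regions numbered 1 and 3 at HoxA, 1 and 1 at HoxB, and 0 on both sides of HoxC and of HoxD. Of the 3, the region at the Hoxa13 promoter crosses the end of HoxA and is also counted inside the cluster. The 50 kb before HoxD still held 5 looser peaks in each replicate.

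Of the nearest protein-coding genes on the outer sides, all but Evx1 and Evx2 had a strict promoter peak in both replicates. Over all protein-coding genes 59.0% had one, and these neighbours are too few to compare with that share. Skap2 (16.1 and 12.9), 143 kb from HoxA, and Calcoco1 (8.10 and 6.61) and Smug1 (7.76 and 6.06), on the sides of HoxC, scored above all Hox genes in both replicates. Skap1, an adaptor of T cell receptor signalling beside HoxB, scored 4.34 and 2.70, Mtx2 beside HoxD 3.02 and 2.44, and Ttll6 beside HoxB 0.533 and 0.723. Evx1 and Evx2, homeobox genes next to HoxA and HoxD, had no promoter peak in any list.

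The noncoding genes inside the clusters (all annotated types other than protein-coding) were named after their values were seen. Of 43, 6 had a strict promoter peak in both replicates, against 11.9% of all such genes in the genome, among them 9530018H14Rik, Gm53, Hoxd3os1 and Haglr. None of the 7 microRNA genes, Mir10a, Mir10b and Mir196b among them, had a strict peak in both replicates within 1000 bp of its annotated start, against 12.0% of all microRNA genes. The annotated entries are short (Mir10a: chr11:96317165-96317274). Whether their starts are the promoters of the microRNA transcripts was not tested. Hotair, the noncoding RNA gene inside HoxC, had no strict peak, and Hoxa11os had one in replicate 1 alone (0.985), the peak of Hoxa11.

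Sequence motifs were counted in the 24 regions, on both strands, beside all 51709 shared regions; the median width was 200 bp in the clusters and 220 bp over all shared regions. The CTCF consensus of 12 letters was found in 0 of 24, against 9.2% of all regions. Allowing 1 mismatch it was found in 5 (20.8%), against 27.7%. Its last 7 letters (AGATGGC or its close variant AGGTGGC, and likewise their counterparts AGAGGGC and then also AGGGGGC) were found in 11 (45.8%), against 46.0%, and inside footprints of both replicates in 9 (37.5%), against 24.0%. The last 3 counts used looser matches chosen after the strict one found none. Of the cluster regions within 1000 bp of any annotated TSS 5 of 15 had such a footprinted match, against 15.9% of all regions so placed, and of those farther away 4 of 9, against 30.1%. A 7-letter match is a description of the sequence and shows no binding.

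So that the sites can be compared, the 9 footprinted matches are given with their surroundings, on the strand that reads the motif, with the 7 letters in capitals. They lie in the promoter regions of Hoxa7, Hoxa10, Hoxb5 and Hoxc10 and in 5 regions away from Hox promoters, named here by the nearest Hox gene.
Hoxa7, chr6:52221799-52221828, minus strand: agaaaattccaggAGATGGCagtgtggctc
Hoxa10, chr6:52240531-52240560, minus strand: cgcagccgccacgAGATGGCgcactcccga
Hoxa13, chr6:52257113-52257142, plus strand: gcttgtcaacacgAGGTGGCgcccttgatc
Hoxb8, chr11:96278940-96278969, plus strand: cacagtggccgctAGATGGCatccttgctc
Hoxb6, chr11:96294688-96294717, minus strand: ccgaacggacggtAGATGGCagcaaactgc
Hoxb5, chr11:96303237-96303266, plus strand: gtcaatcgccgggAGGTGGCgcgctctgct
Hoxc10, chr15:102966564-102966593, plus strand: cgaggcagctgctAGGTGGCgctgttactc
Hoxc8, chr15:102987585-102987614, plus strand: acaagtgaacgcgAGGTGGCgctgttgctc
Hoxd12, chr2:74673168-74673197, minus strand: ccaaacgcccaggAGATGGCgagcgtgctc
The Hoxb6 and Hoxc8 matches are those inside the capitals of the HoxB and HoxC peaks above. In HoxA the matches at Hoxa7 and Hoxa10 read on the minus strand and the one near Hoxa13 on the plus strand.

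Motifs of the Hox proteins and their partners were searched in the same way. The HOX-PBX motif (TGATTNAT) was found in 0 of 24 regions, against 1.26% of all, and the CDX and posterior HOX motif (TTTATGG or TTTACGG) in 0, against 2.33%. The MEIS motif (TGACAG) was found in 4 (16.7%), against 19%. Of motifs of general promoter and lymphoid factors, the SP/KLF box (GGGCGGG) was found in 4 (16.7%), against 21.8%, the RUNX motif (TGTGGT) in 3 (12.5%), against 20.9%, the ETS motif (CCGGAAG) in 1 (4.17%), against 8.43%, and the GATA motif (AGATAA) in 1 (4.17%), against 6.95%. The NFY (CCAATCA) and YY1 (AAGATGGCG) motifs, the REST motif and both retinoic acid response elements (DR5 and DR2) were found in 0 regions, where at most 4.63% of all regions held any one of them. With 24 regions, a share of a few percent cannot be told from 0.

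Genes that work with or on the Hox genes were counted in the same way, beside the 59.0% of all protein-coding genes. Of TALE homeobox genes, whose products bind DNA together with Hox proteins, 7 of 9 had a strict peak in both replicates, led by Pknox1 (19.7 and 13.4), Pbx3 (13.7 and 9.58) and Pbx4 (12.1 and 9.13), while Meis2 had no strict peak. Of Polycomb genes 23 of 24 had one, led by Pcgf3 (24.7 and 17.9), Pcgf1 (23.7 and 14.7) and Cbx8 (20.5 and 16.0). The median CpG number was 48 for the TALE and 77.5 for the Polycomb genes, and of all genes in the ranges that hold these values 83.1% and 89.5% had a strict peak in both replicates. All 10 listed genes of MLL complexes, histone demethylases and the histone methyltransferase Dot1l had one, with Dot1l (17.9 and 14.3), Wdr5 (14.3 and 11.7) and Kmt2a (16.3 and 8.76) highest, and so did all 8 of CTCF and cohesin, among them Stag1 (22.3 and 15.5), Smc3 (18.0 and 14.4) and Ctcf (13.5 and 9.24). Median CpG numbers were 69.5 for the MLL and demethylase list and 99 for CTCF and cohesin. In those ranges 89.5% and 91.3% of all genes had a strict peak in both replicates. Against these lists stood 32 other homeobox genes of the same ANTP class. Of them, 6 (18.8%) had a strict peak in both replicates and 24 had none in either. The median CpG number of these 32 was 63.5, in the range where 89.5% of all genes had such a peak. The highest were Dlx1 (2.41 and 1.83), Dlx4 (1.91 and 1.72) and Emx1 (1.89 and 1.59). Cdx1 and Cdx2, regulators of Hox genes in the embryo, had no strict peak.

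The tissue label was checked by marker promoters. All 9 thymocyte markers had a strict peak in both replicates, against 59.0% of all genes, with Lck (11.6 and 7.58), Bcl11b (10.6 and 6.55) and Cd8a (10.2 and 6.92) highest. Markers of other cells of the organ were counted beside the 59.0% of all genes: 4 of 8 of thymic epithelium, with Ccl25 (12.2 and 10.1), Ly75 (10.9 and 9.86) and Aire (5.23 and 3.99) highest and Foxn1 and Krt5 without a strict peak, 3 of 8 of mesenchyme, with Col1a1 (3.64 and 4.01), Pdgfra (2.87 and 2.89) and Pdgfrb (1.3 and 1.2) highest and Col3a1 and Dcn without one, and 3 of 5 of endothelium, with Vwf (3.3 and 3.4), Pecam1 (2.73 and 2.22) and Kdr (0.874 and 1.28) highest and Cdh5 and Tek without one. Of early blood progenitor markers 5 of 8 were open in both, with Kit (5.89 and 4.76), Mecom (2.40 and 2.12) and Hhex (1.44 and 1.23) highest and Cd34 without a strict peak. The median CpG number was 19 for the thymocyte and 18 for the endothelium markers. In that range 18.2% of all genes had a strict peak in both replicates. For thymic epithelium, mesenchyme and progenitor markers it was 31, 20.5 and 39, in the range where 55.0% of all genes had one. Which cells carry the open Hox sites was not tested.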

How the data were processed

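Whole thymus of male B6CASTF1/J mice was profiled by DNase I-seq in 2 replicates. Per the labels the files are on mm10; how reads were aligned and peaks and footprints called is not stated there. In the deposited peak lists each peak has a signal score. In the deposited FDR tracks each stretch has a q-value (an adjusted p-value), listed where under 0.05. The deposited footprints carry a constant of 0.01 and served as positions.

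Overlapping entries of 1 list were joined, which left 62230 and 66839 strict peaks, and the highest score in a promoter window was its value. Regions were shared when peaks overlapped by at least 1 bp; they span both peaks. GENCODE M21 gave the genes and GRCm38.p6 the sequences, for the 19 autosomes and both sex chromosomes. With 1 group, no test between samples was possible, and shares are descriptions. The files give no cut totals, so no counting interval is given.

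The genes, lists and motifs were chosen with earlier results of these data known. Every Hox gene is in the counts, and 1 is not reported here on its own. Other genes named are the next gene on each side of a cluster and, of each of 10 lists, up to 3 with the highest mean score and the first 2 in alphabetical order without a strict peak. Regions named by rule are the 3 highest of each cluster and the longest closed stretch. The rule also covered regions with the CTCF consensus, of which there were 0. The 9 with a footprinted 7-letter match were named after that was seen, and the few others after their values were seen. Alternatives changed the window, TSS, list, overlap, number of peaks and replicates. The promoter look-up, the shared regions, the gaps and the CTCF consensus search were tested on simulated data. The counts of FDR bases, CpGs, footprints and score steps were not. Python 3.11.15, numpy 2.4.6, pandas 2.3.3 and matplotlib 3.10.9 were used.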

Additional observations from a re-analysis of the deposited data

How the results depend on the processing

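The number of Hox genes with a strict promoter peak in both replicates, 9, ranged from 8 (TSS within 500 bp) to 13 (2500 bp, which added Hoxa3, Hoxb6, Hoxd8 and Hoxd12), and was 11 with the looser list and at an FDR of at most 0.05, 9 at an FDR of at most 0.001, and 10 to 11 with 1 replicate left out. Counting genes with a strict peak in at least 1 replicate, chosen after seeing the data, gave 12. The share of all protein-coding genes was 57.5% at 500 bp, 61.7% at 2500 bp, 54.3% with the 5′ end only, 62.7% with the looser list, 55.9% with the 50000 highest peaks and 60.1 to 60.6% with 1 replicate left out. The median Hox score was 1.75 with the looser list and 1.71 to 1.90 with 1 replicate left out. Shared regions in the clusters numbered 24; without replicate 1 there were 27 and without replicate 2 there were 45, 20 of whose peaks lay from Hoxa9 to Hoxa11. The longest closed stretches with the looser list were 19.6 kb in HoxA, 33.1 kb in HoxB, 29.3 kb in HoxC and 33.4 kb in HoxD; with the 50000 highest peaks HoxB had 49.5 kb, and with 1 replicate left out they were 32.6 to 33.0 kb, 49.0 to 49.5 kb, 45.4 to 49.2 kb and 33.4 kb. Regions with a CTCF match numbered 0 with the looser list, the 50000 highest peaks, 50% reciprocal overlap and with 1 replicate left out, and, by the matches chosen after seeing the data, 5 with 1 mismatch and 9 with the footprinted last 7 letters. No paired analysis was possible because there is 1 group.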
